A study of Homo sapiens with 4 samples.

Results

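Genes of 10 cell-surface proteins linked to immune evasion were followed at the RNA level in the human lung cancer line NCI-H1703, in which the long noncoding RNA EGFR-AS1 had been overexpressed. The genes were named by symbol as CD274, PDCD1LG2, CD276, PVR, CD47, CD46, CD55, CD59, CD109 and NT5E, and all 10 were found by Ensembl identifier among the 48162 genes of the count table. They were selected on the measured difference between the groups, because CD274, CD47, CD55 and CD59 were higher with overexpression. Their differences are therefore a description, given with no p-value. Where the text says that a member rose, fell or was called, this only records on which side of the threshold it lay in the fit across all genes, and is no independent evidence. Of the 10 genes, 9 had enough reads to enter the fit across all genes, each of them in both groups, and PDCD1LG2 did not.

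The study compared 2 libraries of cells overexpressing EGFR-AS1 (sets A and B) with 2 libraries of cells carrying the pCDNA vector (sets A and B). The culture medium of both groups was RPMI plus 10% serum. All cells were selected with hygromycin at 100 µg/ml and were at passage 20 to 30 (vector A) or 20 to 31 (the other libraries). Whether the cells of a group were 1 clone or a pool, and whether sets A and B were separate cultures, the labels do not say, so p-values measure only the spread between these libraries. The total was 32680467 and 33750041 reads in overexpression A and B, against 41518275 and 32601449 in vector A and B. EGFR-AS1 had 670 and 586 reads in the overexpression libraries and 59 and 37 in the vector libraries, so the overexpression is seen in both sets.

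Tumour cells escape lymphocytes, phagocytes and complement partly through proteins on their own surface. CD274 (PD-L1) and PDCD1LG2 (PD-L2) are ligands of the inhibitory T cell receptor PD-1. CD276 (B7-H3) belongs to the same B7 family, and PVR (CD155) binds TIGIT, CD96 and CD226 on T and NK cells. CD47 binds SIRPA on macrophages and restrains phagocytosis. CD46, CD55 and CD59 protect the cell that carries them from complement: CD46 helps factor I to cut C3b and C4b, CD55 speeds the decay of the convertases, and CD59 blocks the membrane attack complex. NT5E (CD73) makes adenosine from AMP outside the cell, and adenosine dampens T cells. CD109, a membrane protein of the alpha-macroglobulin and complement C3 family, is known as a TGF-beta co-receptor and is neither a checkpoint ligand nor a complement inhibitor, so the label of the group covers it and NT5E only loosely.

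The stretches before the transcription starts of CD274, CD47, CD55 and CD59 are shown because these 4 genes led to the choice of the group and were higher together. The letters are those of RefSeq, build GRCh38.p14, for the 250 bases before the annotated start, read on the strand of the gene. The windows are chr9:5450292-5450541 (+) for CD274, chr3:108091032-108091281 (-) for CD47, chr1:207321428-207321677 (+) for CD55 and chr11:33736480-33736729 (-) for CD59, the first of 4 annotated starts of that gene. The counts were made on hg19, so these positions name the sequences and were not used with the counts. Capitals mark matches, on either strand, to any of the 8 motifs searched, which are listed after the sequences.
CD274: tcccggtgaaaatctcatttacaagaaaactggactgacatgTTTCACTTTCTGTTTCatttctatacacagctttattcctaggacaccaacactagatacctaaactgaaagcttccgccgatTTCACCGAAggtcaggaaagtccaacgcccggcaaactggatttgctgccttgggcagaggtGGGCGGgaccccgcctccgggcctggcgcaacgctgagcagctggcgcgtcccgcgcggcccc
CD47: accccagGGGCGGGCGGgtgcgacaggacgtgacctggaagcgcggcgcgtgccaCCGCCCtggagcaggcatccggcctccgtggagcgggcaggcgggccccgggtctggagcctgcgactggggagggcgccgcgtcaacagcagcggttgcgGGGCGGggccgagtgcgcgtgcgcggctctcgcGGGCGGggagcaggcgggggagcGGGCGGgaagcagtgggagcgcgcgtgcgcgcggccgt
CD55: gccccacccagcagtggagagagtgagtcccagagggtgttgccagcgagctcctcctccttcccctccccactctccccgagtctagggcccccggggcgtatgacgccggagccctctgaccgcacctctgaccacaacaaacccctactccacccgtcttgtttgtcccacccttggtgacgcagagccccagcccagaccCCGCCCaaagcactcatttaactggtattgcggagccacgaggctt
CD59: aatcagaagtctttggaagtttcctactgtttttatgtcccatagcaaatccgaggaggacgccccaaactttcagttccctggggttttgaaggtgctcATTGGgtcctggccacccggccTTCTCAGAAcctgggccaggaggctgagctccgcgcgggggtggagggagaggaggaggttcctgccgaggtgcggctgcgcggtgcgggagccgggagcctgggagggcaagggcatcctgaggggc

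The motifs were IRF (GAAA, any 2 bases, GAAA), STAT (TTCNNNGAA), AP-1 (TGANTCA), the E-box (CACGTG), the NF-kB consensus, the GC box (GGGCGG), the CCAAT box (CCAAT) and the TATA box (TATAAA). Of the members, 9 had windows, 14 in all, because CD46, CD59 and CD276 have several starts. In the CD274 window the letters TTTCACTTTCTGTTTC hold a pair of overlapping IRF matches, which begin 208 and 202 bases before the start. An IRF match stood in 1 of the 14 windows, that of CD274, and in 3.02% of all 35116 windows. The STAT letters were found in 3 of the 14 windows, that of CD274 and the first and second of CD59, which overlap, and in 6.57% of all windows. The fourth CD59 window held AP-1 letters 117 and 23 bases before its start, as 6.57% of all windows did. GC boxes were found in 9 of the 14 windows (42.6% of all), among them 6 in the window of CD47, which had 39 CpG against a median of 11 over all windows. The NF-kB consensus occurred in 1 CD276 window and in 9.96% of all windows. The CCAAT box was found in 6 of the 14 windows, those of CD276, CD46 and CD59, and in 32.0% of all windows. In the CD59 window shown it is read on the other strand, as ATTGG, 150 bases before the start. Neither an E-box nor a TATA box was found in any of the 14, against 6.34% and 10.7% of all windows. CD109 and PVR had no match. These matches describe letters and say nothing of binding.

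Of the 9 tested genes, CD274, CD109, CD47, NT5E, CD55 and CD59 rose, CD276 fell, and CD46 and PVR did not pass an adjusted p of 0.05 in the quasi-likelihood test of edgeR over all genes. That is 6 higher and 1 lower, where 7.8% of all 16106 tested genes were called higher and 6.67% lower, 14.5% in all. For 8 of the 9 the libraries of the groups did not overlap, as was the case for 55.5% of all tested genes. The median log2 fold change (overexpression over vector) was 0.66 over the 9 genes and 0.0040 over all tested genes. Since the genes were chosen on this difference, nothing is read from these counts. Without overexpression A, 3 of the 9 were called. Levels below are CPM, reads scaled to library size with TMM factors, and errors of means are SD with n = 2. In bulk RNA a change in the RNA of each cell and a change in the share of cells that make it cannot be told apart.

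**Figure D1:**
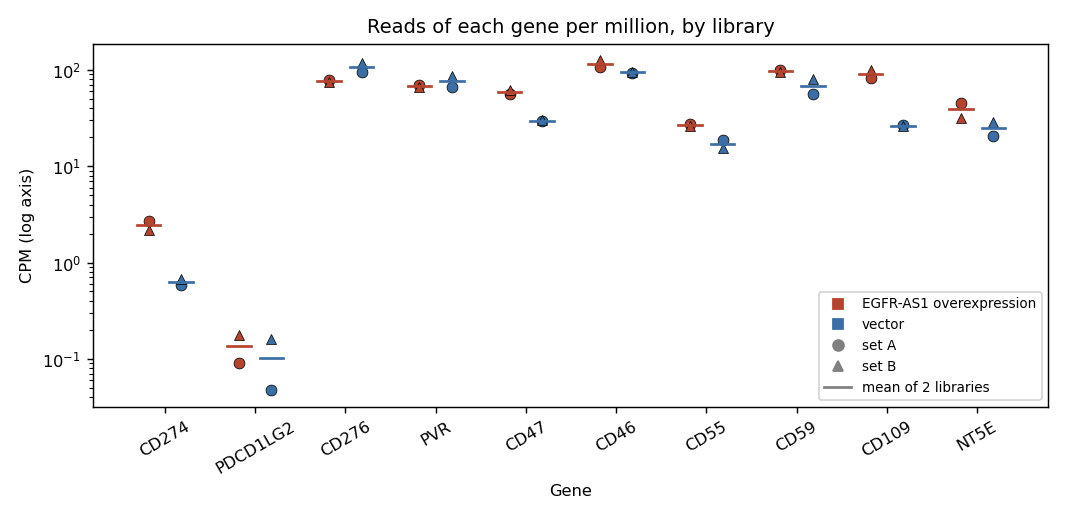
CPM of the 10 genes on a log axis in each library, with overexpression left and vector right for each gene, circles for set A, triangles for set B and a line at the mean of 2 libraries. The libraries of the groups stand apart for CD274, CD276, CD47, CD46, CD55, CD59, CD109 and NT5E, and overlap for PDCD1LG2 and PVR.

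Among the ligands of T and NK cell receptors, PD-L1 and B7-H3 moved in opposite directions. CD274 had 2.69 and 2.17 CPM in overexpression A and B, against 0.590 and 0.666 CPM in vector A and B. Both overexpression libraries were more than 3 times as high as either vector library. These levels rest on 89 and 73 reads with overexpression and 25 and 21 in vector, the fewest of the 9 tested genes, and the standard error was the largest. The log2 fold change was 1.95 (SE 0.33), a 3.87-fold difference between means of 2.43 ± 0.368 and 0.628 ± 0.0542 CPM. It ran from 1.78 without overexpression A to 2.10 without overexpression B and stayed past the threshold without any single library.

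PDCD1LG2, which lies beside CD274 on chromosome 9, was barely detected. It had 3 and 6 reads in the overexpression libraries and 2 and 5 in the vector libraries. The groups overlapped, and at 9 against 7 reads no difference was detectable at this depth.

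CD276 was among the most abundant members and was lower with overexpression. It measured 79.0 and 75.5 CPM in overexpression A and B, against 96.0 and 119 CPM in vector A and B. The groups did not overlap, but the vector libraries lay further apart than the overexpression libraries. Its log2 fold change was -0.47 (SE 0.13), with means of 77.2 ± 2.50 and 107 ± 16.1 CPM. The call was lost without overexpression A (-0.52), without overexpression B (-0.44) and without vector B (-0.31). Without vector A the value was -0.62 and stayed past the threshold.

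PVR did not differ beyond the spread of the libraries. Its levels were 70.3 and 65.8 CPM with overexpression, against 66.7 and 85.7 CPM in vector. Both overexpression libraries lay at the lower end of the range spanned by the vector libraries or just under it. The log2 difference of -0.16 (SE 0.13) was 0.03 without vector B and -0.34 without vector A, so its sign hung on vector B.

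CD47, the ligand that restrains phagocytes, had 56.7 and 61.3 CPM in overexpression A and B, against 29.2 and 30.5 CPM in vector A and B. Libraries of a group differed little and the groups lay far apart. Its mean was 59.0 ± 3.31 CPM with overexpression and 29.8 ± 0.922 CPM in vector, 1.98-fold apart (log2 fold change 0.99, SE 0.13). Across single libraries left out, the value stayed within 0.93 to 1.03 and past the threshold.

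Of the complement inhibitors, CD55 and CD59 rose and CD46, the most abundant of the 3 per length, did not pass. CD55 had 27.5 and 26.0 CPM in overexpression A and B, against 18.6 and 15.3 CPM in vector A and B. Every overexpression library was above both vector libraries, and the log2 fold change was 0.66 (SE 0.15), a 1.57-fold difference. Without overexpression A it was 0.61 and no longer past the threshold.

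CD59 showed 99.0 and 95.4 CPM with overexpression, against 55.6 and 80.1 CPM in vector. The vector libraries differed from each other 1.44-fold, as much as the 1.43-fold difference between the groups. Its log2 fold change of 0.52 (SE 0.15) was 0.27 without vector A, 0.81 without vector B and 0.48 without overexpression A. The call was lost without vector A and without overexpression A.

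CD46 was at 108 and 125 CPM in overexpression A and B and at 93.9 and 95.7 CPM in vector A and B. All overexpression values were above all vector values, by a small margin. The log2 difference of 0.30 (SE 0.12) was not past the threshold, and leaving out single libraries gave 0.18 to 0.40, none past it.

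CD109 had the second largest rise. It measured 81.7 and 100.3 CPM in overexpression A and B, against 26.5 and 26.0 CPM in vector A and B. The vector libraries were nearly equal, and each overexpression library was at least 3 times as high. The log2 fold change was 1.79 (SE 0.13), with means of 91.0 ± 13.2 and 26.3 ± 0.390 CPM, and 1.63 to 1.93 without single libraries, each past the threshold. By the annotation, 3.07% of its exonic bases lie under exons of CD109-AS1 on the opposite strand. That gene had 30 reads over the 4 libraries, against 8026 for CD109.

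NT5E rose, but its libraries lay apart within both groups. It had 45.7 and 32.0 CPM in overexpression A and B, against 20.5 and 28.9 CPM in vector A and B. The groups did not overlap, but overexpression B and vector B were close. Overexpression A was 1.43-fold above overexpression B, and vector B 1.41-fold above vector A, beside a 1.58-fold difference between the groups. The log2 fold change of 0.66 (SE 0.19) was 0.37 without overexpression A, which ended the call. It was 0.42 without vector A, 0.89 without overexpression B and 0.92 without vector B, all past the threshold.

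**Figure D2:**
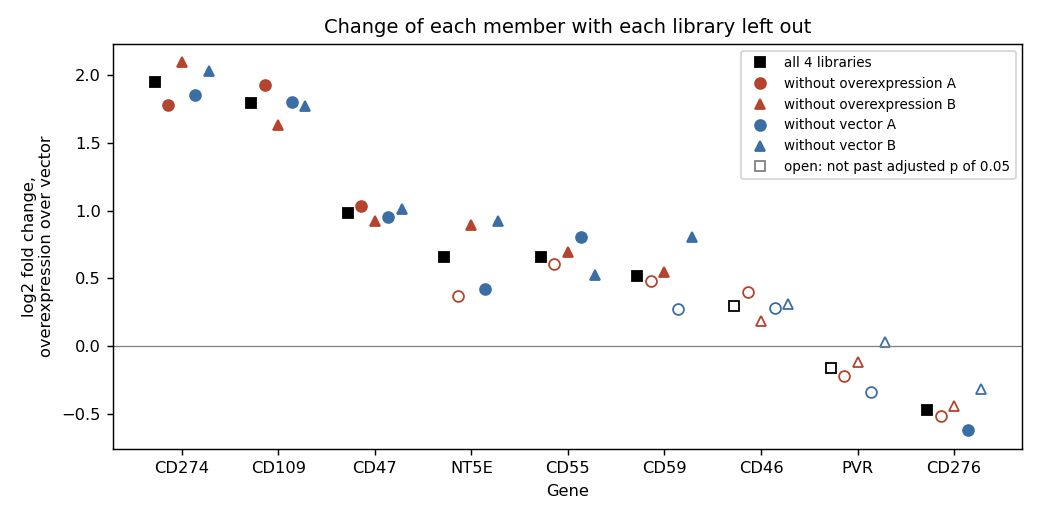
Log2 fold change (overexpression over vector) of the 9 tested genes with all 4 libraries (black) and with each library left out, filled where the adjusted p was under 0.05 and open where it was not. CD274, CD109 and CD47 stay filled throughout, while CD276, CD55, CD59 and NT5E each have at least 1 open point.

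Members held by a glycosylphosphatidylinositol (GPI) anchor and members that span the membrane can be set side by side. CD55, CD59, CD109 and NT5E are GPI-anchored, and all 4 were called higher, where 7.8% of all tested genes were, with log2 fold changes of 0.52 to 1.79. Without overexpression A, CD55, CD59 and NT5E lost the call and CD109 was still past the threshold. Of the 6 transmembrane members, 5 were tested: 2 were higher, 1 was lower and 2 did not pass, with log2 fold changes of -0.47 to 1.95. CD55 and CD59 were chosen because they were higher, as were CD274 and CD47 among the transmembrane members. These counts are therefore only a description, and the difference between the kinds of anchor was not tested. GPI-anchored genes outside the members were not counted as a class, and those named next were not called higher. ULBP3 was called lower, at a log2 fold change of -1.11 (edgeR adjusted p = 0.0127). THY1 and ULBP2, set here after their values were seen, were at 0.15 and 0.49. Neither was called (edgeR adjusted p = 0.456 and 0.273).

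Per kilobase of exon (GENCODE release 29), PVR and CD276 were the most abundant members and the PD-1 ligands the least. PVR stood at 20.0 and 18.7 CPM per kb in the overexpression libraries and at 19.0 and 24.4 in the vector libraries. CD276 had 14.3 and 13.6 CPM per kb with overexpression and 17.3 and 21.4 in vector, where its libraries overlapped those of PVR. CD46 came next, with means of 13.4 ± 1.43 CPM per kb with overexpression and 10.9 ± 0.141 in vector. With overexpression its libraries overlapped those of CD276, and in vector they did not.

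The middle of the order changed most for CD109. Its mean was 9.30 ± 1.34 CPM per kb with overexpression, where it was the fifth of the 10 and overlapped CD59 and NT5E. In vector it was at 2.69 ± 0.0396, the eighth, overlapping CD55 at 2.87 ± 0.397. CD274 was at 0.591 ± 0.0895 CPM per kb with overexpression and 0.153 ± 0.0132 in vector. Even after its rise its mean was 7.66 times lower than that of CD55, the next gene above it, and 10.4 times higher than that of PDCD1LG2. With the longest transcript as the length in place of all exons, the order shifted: CD276 stood above PVR in both groups, CD109 was the sixth with overexpression and still the eighth in vector, and the gene next above CD274 with overexpression was CD47, at a mean of 8.68 CPM per kb against 0.666 for CD274.

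**Figure D3:**
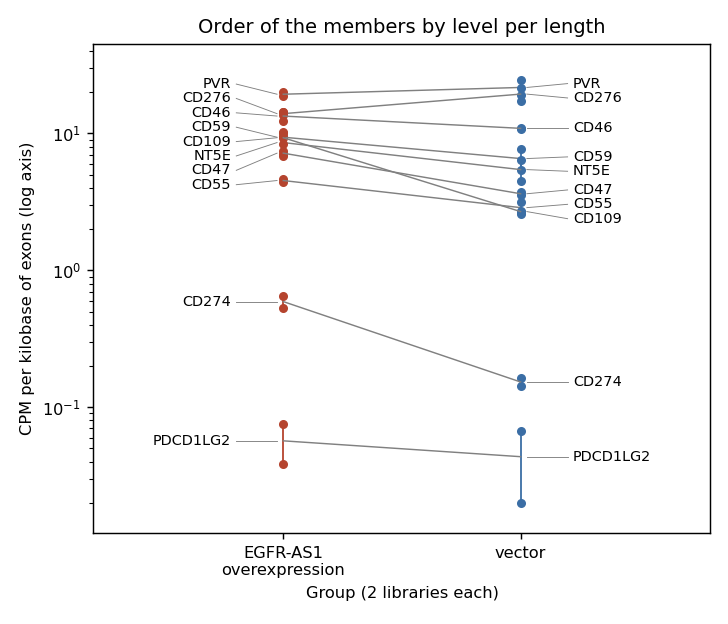
CPM per kilobase of all exons on a log axis for the 10 genes, overexpression left and vector right, with points for the 2 libraries of a group and a line joining the group means. CD109 is the fifth highest with overexpression and the eighth in vector, and CD274 lies far under all others but PDCD1LG2 in both groups.

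Neighbouring genes were examined because runs of neighbours differed between these groups on some chromosomes. For each member the 10 nearest tested coding genes on each side were taken, in the order of the annotation. CD47 on chromosome 3 was the member whose neighbours moved most with it. Of its 20 neighbours, 16 had a log2 fold change above 0, 8 were called higher and 0 lower, and their median was 0.35, against 0.99 for CD47 itself. The nearest on either side, BBX and IFT57, were at -0.01 (edgeR adjusted p = 0.978) and 0.43 (edgeR adjusted p = 0.0717). The part of this stretch in the rise of CD47 was not tested.

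For the other members the medians of the neighbours were nearer 0. They were -0.04 around CD274, 0.04 around CD109, 0.19 around NT5E, 0.05 around CD55, -0.05 around CD59, 0.02 around CD46, 0.10 around PVR and -0.10 around CD276. Between 0 and 4 of the 20 neighbours of each were called higher and between 0 and 2 lower. Around NT5E, 15 of the 20 had a log2 fold change above 0, 1 was called higher and 0 lower. The part of that stretch in the rise of NT5E was not tested. Around CD109, 4 were called higher and 1 lower, and 11 had a log2 fold change above 0. Those higher, named after their values were seen, were DDX43 (0.68), EEF1A1 (0.46), COX7A2 (0.43) and COL12A1 (0.67). COL12A1 is the nearest on one side of CD109, and SLC17A5, the nearest on the other, was at 0.37 and not called. The part of this stretch in the rise of CD109 was not tested. CD46 and CD55 lie in the same cluster on chromosome 1 and count among each other's neighbours. Of the 10 tested genes listed around CD274, among them the kinase gene JAK2, 0 were called (edgeR, adjusted over all genes), 2 had an unadjusted p under 0.05 (JAK2 and PLGRKT), and DESeq2 and limma-voom also called 0. JAK2, which signals for interferon receptors, stood at -0.49 (SE 0.19, edgeR adjusted p = 0.106), and was called lower at -0.57 without vector B. PLGRKT, next to CD274, was at 0.45 (SE 0.16, edgeR adjusted p = 0.0735), and was called higher at 0.50 without vector A. The other 8 lay between -0.34 (KDM4C) and 0.20 (UHRF2), with RCL1, RIC1, ERMP1, KIAA2026, RANBP6 and GLDC between them. Of the 3 tested genes listed around CD46 and CD55, the laminin gene LAMB3 was called higher, with 66 and 38 reads with overexpression, against 10 and 7 in vector (log2 fold change 2.74, edgeR adjusted p = 5.90e-04), and YOD1 and PFKFB2 did not pass.

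**Figure D4:**
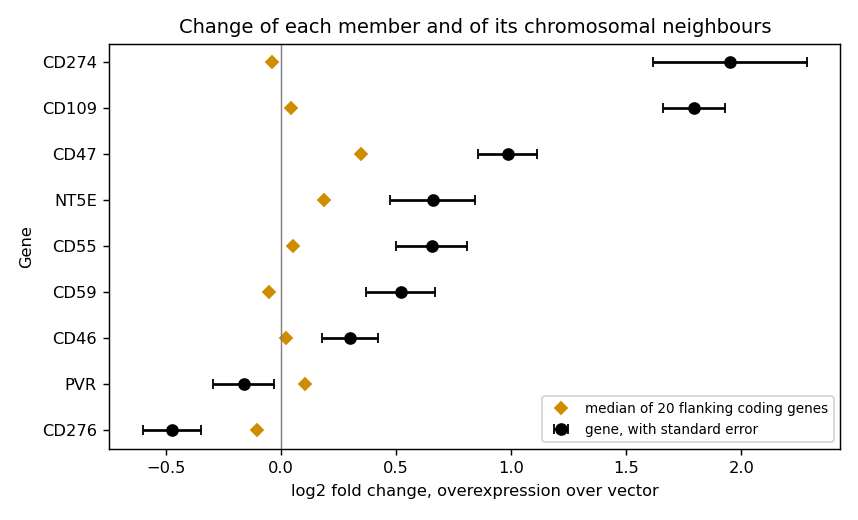
Log2 fold change (overexpression over vector) of the 9 tested genes with its standard error (black) and the median over the 20 nearest tested coding genes (diamonds). The diamond of CD47 lies furthest to the right, at 0.35, and those of CD274 and CD109 lie at -0.04 and 0.04, far from the values of the genes themselves.

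Beyond the 10 genes, 173 genes of 7 related lists were counted, of which 112 were tested. Of these, 13 were higher, 9 lower and 90 did not pass, 19.6% called beside 14.5% of all genes. Their median log2 fold change was -0.02. Without overexpression A or without overexpression B 13 of them were called, and without vector A 33.

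Other checkpoint ligands moved in both directions. Of 19 tested, 6 were higher, 3 lower and 10 did not pass, with a median of 0.28. NECTIN3, an adhesion molecule that binds PVR, had 15.4 and 16.8 CPM with overexpression, against 0.495 and 0.254 CPM in vector. With 510 and 566 reads with overexpression against 21 and 8 in vector, the groups were far apart (log2 fold change 5.36, SE 0.28, edgeR adjusted p = 2.67e-09). NECTIN3 lies in the same stretch of chromosome 3 as CD47, where 10 of its 20 neighbours were called higher. VSIR, which encodes the inhibitory ligand VISTA, rose 2.30-fold to 15.0 ± 2.09 CPM, against 6.52 ± 1.51 CPM in vector (edgeR adjusted p = 6.61e-04). TNFSF9, the ligand of the stimulatory receptor 4-1BB, rose 2.46-fold to 9.37 ± 2.08 CPM, against 3.78 ± 0.859 CPM in vector (edgeR adjusted p = 0.00113).

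The butyrophilin-like gene BTNL9 fell by 0.87 on the log2 scale (SE 0.18, edgeR adjusted p = 0.00360), and without vector A by 0.46. It had 59.8 and 50.1 CPM with overexpression, against 125 and 75.7 CPM in vector. NECTIN1, an adhesion molecule of the nectin family, fell by 0.56 (SE 0.12, edgeR adjusted p = 0.00474), a call lost without overexpression B (-0.50). The most abundant genes of the list, HLA-E and NECTIN2, had log2 differences of 0.11 (SE 0.12, edgeR adjusted p = 0.624) and 0.15 (SE 0.12, edgeR adjusted p = 0.473). HLA-E reads can be shared with other HLA genes. The remaining calls, named after their values were seen, were CD40, BTN3A2 and BTN3A3 (higher) and ICOSLG (lower). CD40 is a receptor, and ICOSLG, like TNFSF9, is stimulatory, so the counts of this list are not counts of inhibitory ligands alone. BTN3A2 and BTN3A3 are near copies of each other and of BTN3A1, so their counts are uncertain. Of 4 tested ligands of the activating NK cell receptor NKG2D, ULBP3 fell by 1.11 (SE 0.28, edgeR adjusted p = 0.0127), a call lost without overexpression B (-0.93). MICA and MICB, whose reads can be shared, did not pass. MICA was called higher at 0.46 without vector B. The list had 1 call with all libraries, 2 without vector A or without vector B, and 0 without overexpression B.

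**Figure D5:**
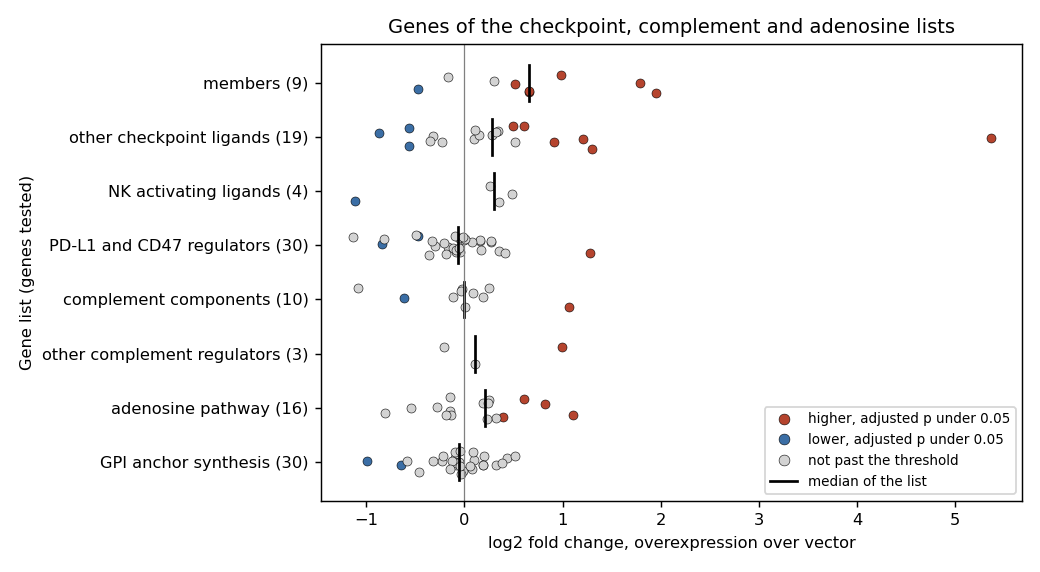
Log2 fold change (overexpression over vector) of each tested gene of the 10 chosen genes and of the 7 other lists, red where higher and blue where lower at an adjusted p under 0.05, with the median of each list as a black line. NECTIN3, at 5.36, is the point at the far right, and the regulators and the GPI anchor genes cluster around 0.

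Most regulators of PD-L1 and CD47 did not pass: of 30 tested, 1 was higher, 2 lower and 27 did not pass, with a median of -0.07. QPCT, a glutaminyl cyclase, rose 2.43-fold (log2 fold change 1.28, SE 0.31, edgeR adjusted p = 0.0109), a call lost without overexpression A (1.16). QPCTL of the same list, named after its values were seen, was at 0.42 (SE 0.15, edgeR adjusted p = 0.0771) and did not pass. Whether either gene acts on CD47 in these cells was not tested. HIF1A, the hypoxia factor, fell by 0.84 (SE 0.14, edgeR adjusted p = 4.61e-04), in a stretch of chromosome 14 where 16 of its 20 neighbours were lower. The most abundant, the deubiquitinase gene USP22 and STAT3, had log2 differences of -0.29 (SE 0.12, edgeR adjusted p = 0.107) and 0.27 (SE 0.12, edgeR adjusted p = 0.145). USP22 was called lower at -0.34 without vector A. The list had 3 calls with all libraries, 8 without vector A, 7 without vector B, and 2 without overexpression A or without overexpression B.

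Because the CD274 window holds IRF letters, IRF1 and IRF2 were looked at as well, chosen after their values were seen. IRF1, the interferon-response factor, had 33.2 and 31.7 CPM with overexpression, against 28.1 and 29.5 CPM in vector, 0.17 apart on the log2 scale (SE 0.14, edgeR adjusted p = 0.463). IRF2 was at 30.6 and 33.8 CPM with overexpression and 31.1 and 33.3 CPM in vector. For IRF2 the groups overlapped. For IRF1 they did not overlap, but the difference did not pass the test.

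Of 22 complement components listed, 10 had enough reads to be tested. Of these, 1 was higher and 1 lower: C3, the central component, rose 2.09-fold to 2.92 ± 0.395 CPM, against 1.37 ± 0.634 CPM in vector (edgeR adjusted p = 0.0367), and the protease gene C1S fell by 0.61 (SE 0.19, edgeR adjusted p = 0.0447). Both calls hung on single libraries, and without overexpression A or without overexpression B 0 of the 10 were called. That of C3 was lost without vector B (log2 fold change 0.68), without overexpression A (0.92) and without overexpression B (1.20), beside 1.07 with all libraries and 1.66 without vector A. That of C1S was lost without vector A (-0.52), without overexpression A (-0.62) and without overexpression B (-0.61). DESeq2 called neither (adjusted p = 0.0757 for C3 and 0.0533 for C1S). CFD, factor D, the most abundant component, did not pass, and was called higher at 0.46 without vector A.

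Of 3 tested complement regulators outside the chosen genes, CLU, the secreted inhibitor clusterin, rose 1.99-fold to 19.2 ± 1.25 CPM, against 9.64 ± 0.348 CPM in vector (edgeR adjusted p = 5.96e-04). C1QBP, a binding protein of C1q, was the most abundant, at 211 and 233 CPM with overexpression and 225 and 289 CPM in vector. It did not pass, and was called lower at -0.38 without vector A.

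The list around NT5E held genes that handle adenosine, its precursors and other nucleotides, and its calls with all libraries were all higher. Of 16 tested, 4 were higher, 0 lower and 12 did not pass, 25% called beside 14.5% of all genes. The median was 0.21, against 0.0040 over all tested genes. Leaving out overexpression A left 1 call. ENPP1, which makes AMP from ATP outside the cell, had 17.4 and 18.4 CPM with overexpression, against 8.21 and 8.44 CPM in vector (log2 fold change 1.10, SE 0.17, edgeR adjusted p = 2.76e-04). In its stretch of chromosome 6, 6 of its 20 neighbours were called higher and 0 lower. ADA, which turns adenosine into inosine, had 71.8 and 63.9 CPM with overexpression, against 46.9 and 42.1 CPM in vector (0.61, SE 0.13, edgeR adjusted p = 0.00374; 0.51 and not past the threshold without overexpression A). The mitochondrial nucleotidase gene NT5M rose 1.77-fold (edgeR adjusted p = 0.0111), at a log2 fold change of 0.82 that was 0.60 and not past the threshold without overexpression A.

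ADK, the adenosine kinase gene, was at 136 and 146 CPM with overexpression and 101 and 114 CPM in vector. The difference came to 0.39 on the log2 scale (SE 0.12, edgeR adjusted p = 0.0374). The call was lost without overexpression A (0.43), without overexpression B (0.34) and without vector A (0.31). The most abundant genes of the list, the nucleotidase gene NT5C2 and the nucleoside transporter gene SLC29A1, did not pass (edgeR adjusted p = 0.190 and 0.477).

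The genes that build the GPI anchor were counted beside the GPI-anchored members. Of 30 tested, 0 were higher, 2 lower and 28 did not pass (edgeR), with a median of -0.05. Without vector A 5 were called, 2 of them higher, without vector B 5, all lower, and without overexpression B 1. PGAP6, which cuts GPI-anchored proteins, had 84.2 and 75.7 CPM with overexpression, against 168 and 150.5 CPM in vector (log2 fold change -0.99, SE 0.12, edgeR adjusted p = 4.25e-05). PIGQ, of the first step of anchor synthesis, fell by 0.64 (SE 0.15, edgeR adjusted p = 0.00753), a call lost without overexpression B (-0.51) and at -0.42 without vector A. Both lie in a stretch of chromosome 16 where 13 of the 20 neighbours of PGAP6 and 15 of those of PIGQ were lower. The most abundant gene of the list besides PGAP6, GPAA1, was at a log2 difference of 0.09 (edgeR adjusted p = 0.696).

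Partners of these ligands that leukocytes carry were nearly absent, with 3 of 17 tested. SIRPA, the receptor of CD47, was expressed by the line itself. It had 29.1 and 25.8 CPM with overexpression, against 41.2 and 43.4 CPM in vector (log2 fold change -0.62, SE 0.14, edgeR adjusted p = 0.00493), and -0.54 and not past the threshold without overexpression B. The complement receptor gene C5AR1 fell by 0.90 (SE 0.26, edgeR adjusted p = 0.0275), and by 0.46 without vector A and 0.74 without overexpression B, both not past the threshold.

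Most markers of other cells had few reads. Of 17 leukocyte markers, 2 had no read, FCGR3A and TYROBP, and only CD8A and ITGAM were tested, neither of them called. Their summed level was 10.8 to 11.7 CPM with overexpression and 8.12 to 8.75 CPM in vector, most of it from ITGAM. In overexpression A alone the fibroblast genes DCN and COL1A2 had 39 and 37 reads, against at most 1 in each other library. PTPRC, the pan-leukocyte gene, had 3 reads there, against 0 in each other library. The fibroblast gene LUM and the leukocyte genes LYZ, MS4A1 and NKG7 had 8, 6, 4 and 4 reads there, against at most 1 in each other library. In vector B the leukocyte gene CD14 had 18 reads, against 2 to 4 in each other library. Summed levels of the 8 fibroblast markers were 140 to 143 CPM with overexpression and 120 to 126 CPM in vector, most of it from THY1. Of the 3 fibroblast markers tested, 1 was higher, COL3A1, with 44 and 30 reads with overexpression, against 10 and 16 in vector (log2 fold change 1.62, edgeR adjusted p = 0.0256), a call lost without vector A (1.12) and without overexpression A (1.28). NT5E had a log2 fold change of 0.37 without overexpression A. The part of such reads in this value was not tested. CD274, CD47 and CD109 were at 1.78, 1.03 and 1.93 without that library. The other tested members were then at 0.61 (CD55), 0.48 (CD59), 0.40 (CD46), -0.52 (CD276) and -0.22 (PVR). Of the 8 epithelial markers 5 were tested, of which 1 was higher and 2 lower. KRT18, the most abundant, was at 33.8 and 28.2 CPM with overexpression and 68.0 and 82.5 CPM in vector (log2 fold change -1.28, edgeR adjusted p = 1.35e-05). KRT8, its keratin partner, fell by 1.09 (edgeR adjusted p = 0.00628), a call lost without overexpression B (-0.88). The tight junction gene CLDN7 was higher, with 58 and 52 reads with overexpression, against 28 and 9 in vector (log2 fold change 1.75, edgeR adjusted p = 0.00753). Of the 6 mesenchymal markers tested, 3 were higher, 1 was lower and 2 did not pass. CDH2 (N-cadherin), FN1 (fibronectin) and the transcription factor gene ZEB2 rose, with log2 fold changes of 3.04, 2.13 and 0.91 (edgeR adjusted p = 8.45e-05, 1.17e-04 and 4.61e-04). The growth factor receptor gene PDGFRA fell by 0.57 (edgeR adjusted p = 0.00909), a call lost without overexpression A (-0.46). VIM, the filament gene and the most abundant of them, did not pass, at 2016 and 1825 CPM with overexpression and 1764 and 2015 CPM in vector. The part of these marker changes in the values of the 10 genes was not tested.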

How the data were processed

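RNA of NCI-H1703 cells was measured in 4 strand-specific mRNA libraries with inserts of 250 to 300 bases, made by a sequencing provider, per the labels' protocols. The authors deposited raw read counts per Ensembl gene, as whole numbers. The submitters' processing notes name STAR, HTSeq, DESeq2 and hg19. Their versions, the annotation release and the strand setting were not given in the labels or headers, so reads from overlapping genes on opposite strands may not be fully separated.

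From these counts, genes passing filterByExpr of edgeR 4.0.16 (16106 of 48162) were scaled by TMM and tested with glmQLFit and glmQLFTest in R 4.3.3, with all 4 libraries and no covariate. P-values were adjusted by Benjamini-Hochberg over all tested genes, with a threshold of 0.05. Standard errors are those implied by the F statistic. On simulated counts for the 16106 genes, the fit found 23 of 69 genes altered 1.5-fold, 50 of 66 at 2-fold and 57 of 65 at 4-fold, with 8 false among 138 calls. In that simulation, at 2 libraries a group, small changes were often missed. It altered far fewer genes than the 2332 called in the data, which makes the adjusted threshold stricter there. Recovery in the data may therefore differ. Lengths and gene order came from GENCODE 29, which held 45342 of the identifiers, and promoter letters from RefSeq.

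The members and lists were chosen with earlier results of these data known. Named were all 10 members, EGFR-AS1, from each other list up to 5 called genes with the smallest p and the 2 most abundant, every tested gene of the neighbour lists, and markers at 0; other names are marked as chosen after their values were seen, or are markers given with their reads. Alternatives were RLE factors, library totals alone, DESeq2 1.42.0, limma-voom (limma 3.58.1), other filters, the set letter as a block and leaving out each library. From the lists, 5 genes were not analysed here. Results of some listed genes are not reported here.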

Additional observations from a re-analysis of the deposited data

How the results depend on the processing

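Counts of called genes moved when a library was left out, where the lone library of its group is assumed to vary like the others: between 1271 and 3522 over all genes (2332 with all libraries), between 3 and 6 of the 9 tested members (7), and between 13 and 33 in the other lists (22). Other factors, DESeq2, limma-voom and other filters gave 2125 to 2792 over all genes, 7 members each, and 20 to 24 in the lists. Whether same-lettered libraries share more than the letter, the labels do not say, and their deviations correlated at 0.23 across genes. With the letter as a replicate block, 3467 genes, 8 members (CD46 added) and 34 list genes were called, among them 10 regulators of PD-L1 and CD47 (3 without the block) and 6 GPI anchor genes, 2 of them higher (2 without it, both lower).

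Of the single genes, signs turned only for values near 0. Over the libraries left out in turn, log2 differences ran from -0.34 (without vector A) to 0.028 (without vector B) for PVR, from -0.029 (without vector B; -0.016 without overexpression A) to 0.46 (without vector A, called) for CFD, and from -0.0063 (without overexpression A) to 0.17 for GPAA1. They ran from -0.14 to 0.059 (without vector B; 0.0014 without overexpression A) for RIC1, from -0.13 to 0.041 (without overexpression A) for RANBP6, from -0.30 to 0.0093 (without vector B) for YOD1, and from -0.073 (without vector A; -0.058 without overexpression A) to 0.12 for VIM. None of the values with a turned sign passed the threshold. Depth limits PDCD1LG2, at 2 to 6 reads, and the precision of CD274. The cause of these shifts was not tested.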
